A study of Mus musculus with 10 samples.

Results

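The regions described here are the accessible sites of mouse genes that had 3 or more separate sites at annotated starts of transcription. They were chosen by a rule applied to a pooled list of 153924 accessible sites: a protein-coding gene on chromosomes 1 to 19 was taken when at least 3 separate sites each contained a transcription start site (TSS) of the gene's own protein-coding transcripts. The rule selected 145 of 20807 coding genes (0.697%), and the members are their 477 sites, which were 0.310% of the list. The sites are called promoter sites below and are numbered in the direction of transcription, so that site 1 is the 5′-most site of a gene. The number of promoter sites per gene follows from the rule and is given as a description.

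Many mammalian genes start transcription at more than a single promoter. Alternative promoters join different first exons to a shared gene body, so that a gene can be switched on by different factors in different cells, and a first exon with its own start codon gives the protein another N-terminus. Promoters in CpG islands, stretches of DNA in which the dinucleotide CpG has been retained, are typically open in most cell types and carry methylation of histone H3 at lysine 4, whereas promoters poor in CpG are more often restricted to certain cells.

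The data come from ATAC-seq, in which the Tn5 transposase inserts adapters into open chromatin. Immortalized mouse embryo fibroblasts (iMEF) were used whose endogenous Ash2l alleles had lost exon 4 and which lived on a lentiviral transgene encoding human ASH2L fused to FKBP12F36V and HA tags; the study names NG3, a clone of such cells, for its ATAC-seq, so all libraries share this genotype. ASH2L belongs to the core of the KMT2 enzymes, which place methyl groups on lysine 4 of histone H3, and dTAG-13 is a PROTAC that tethers the fusion protein to an E3 ubiquitin ligase and thereby causes its degradation. Of 10 libraries, 2 were from cells without dTAG-13, which per the methods received ethanol, and the treatment lasted 30 min in 2 libraries, 4 h in 2, 8 h in 2 and 24 h in 2. The list analysed pools all of them and gives positions only. No value per library, no difference between time points and no replicate error could therefore be given, the depth is unknown, and the cell type could not be checked against the expression of its markers.

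Plec, the gene of the cytoskeletal linker plectin, illustrates what such a gene looks like in sequence, and it was the first cytoskeletal gene by the number of sites. Of its 6 promoter sites, 5 are shown by the 100 bases upstream of the start site used by most transcripts of each site (mm10, sequence from the RefSeq copy of GRCm38.p6). Each is written 5′ to 3′ on the strand of the gene, with CpG dinucleotides in capitals.
Plec site 1 (chr15:76232571-76232670, minus strand): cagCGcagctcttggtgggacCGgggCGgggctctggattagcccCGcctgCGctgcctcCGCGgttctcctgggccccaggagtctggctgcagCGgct
Plec site 3 (chr15:76208254-76208353, minus strand): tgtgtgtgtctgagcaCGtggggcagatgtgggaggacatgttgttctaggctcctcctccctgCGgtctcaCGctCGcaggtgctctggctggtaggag
Plec site 4 (chr15:76206322-76206421, minus strand): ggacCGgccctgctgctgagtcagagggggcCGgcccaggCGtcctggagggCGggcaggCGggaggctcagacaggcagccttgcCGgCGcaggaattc
Plec site 5 (chr15:76199836-76199935, minus strand): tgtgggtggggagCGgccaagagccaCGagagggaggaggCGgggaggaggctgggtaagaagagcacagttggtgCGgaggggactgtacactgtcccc
Plec site 6 (chr15:76195711-76195810, minus strand): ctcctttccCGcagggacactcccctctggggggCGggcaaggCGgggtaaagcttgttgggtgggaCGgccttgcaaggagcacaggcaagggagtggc
The upstream window of site 1 contained 8 CpGs, and the site overlapped a CpG island. At sites 3 and 6, which did not, the windows held 4 CpGs each. Site 5 overlapped an island although its window also held 4. The window of site 4 held 7 CpGs and a match to the letters TGANTCA. This pattern includes the consensus bound by AP-1 (dimers of Fos and Jun proteins) but accepts any base at its centre.

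Zbtb20, which encodes a zinc finger repressor, had 4 promoter sites, and none of them overlapped a CpG island. Its windows are shown as the contrast to Plec.
Zbtb20 site 1 (chr16:43235780-43235879, plus strand): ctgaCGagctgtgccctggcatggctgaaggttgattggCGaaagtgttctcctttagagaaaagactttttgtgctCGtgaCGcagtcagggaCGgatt
Zbtb20 site 2 (chr16:43247184-43247283, plus strand): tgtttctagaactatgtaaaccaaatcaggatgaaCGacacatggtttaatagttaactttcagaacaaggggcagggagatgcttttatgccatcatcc
Zbtb20 site 3 (chr16:43363773-43363872, plus strand): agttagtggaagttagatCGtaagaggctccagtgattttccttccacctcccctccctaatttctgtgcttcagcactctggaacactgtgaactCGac
Zbtb20 site 4 (chr16:43503514-43503613, plus strand): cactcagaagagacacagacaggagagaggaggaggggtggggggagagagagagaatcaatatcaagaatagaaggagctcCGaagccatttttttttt
They contained 5, 1, 2 and 1 CpGs, with a GC content of 51%, 39%, 48% and 47%. In Plec the GC content of the windows shown ranged from 61% at site 3 to 74% at site 4.

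The windows of Runx1 and Pde4d are shown because their CpG content differed between sites; both genes were chosen after their values had been seen. Runx1 encodes a transcription factor of blood and other lineages, and the distal promoter of the gene lies upstream of an internal promoter within a CpG island.
Runx1 site 1 (chr16:92826150-92826249, minus strand): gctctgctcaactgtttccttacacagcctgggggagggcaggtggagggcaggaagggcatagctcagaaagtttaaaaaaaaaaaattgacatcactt
Runx1 site 2 (chr16:92697329-92697428, minus strand): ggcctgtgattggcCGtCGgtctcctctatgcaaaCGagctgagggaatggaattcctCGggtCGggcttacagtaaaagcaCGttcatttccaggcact
Runx1 site 3 (chr16:92695496-92695595, minus strand): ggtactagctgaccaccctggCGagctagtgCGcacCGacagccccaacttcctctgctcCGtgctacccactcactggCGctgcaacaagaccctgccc
The window at site 1 of Runx1 contained no CpG, whereas those of sites 2 and 3 contained 6 and 5. Site 3 was only supported by a transcript model with an incomplete 5′ end that begins within a later exon of the gene, so a start of transcription there rests on the annotation alone.

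Pde4d encodes a phosphodiesterase that degrades cyclic AMP, and its isoforms differ in their N-termini.
Pde4d site 1 (chr13:109116541-109116640, plus strand): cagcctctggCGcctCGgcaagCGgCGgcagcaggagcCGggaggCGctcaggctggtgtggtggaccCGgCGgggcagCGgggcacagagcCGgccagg
Pde4d site 2 (chr13:109260554-109260653, plus strand): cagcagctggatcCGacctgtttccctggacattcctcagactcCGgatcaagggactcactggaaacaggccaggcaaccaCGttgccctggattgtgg
Pde4d site 3 (chr13:109632680-109632779, plus strand): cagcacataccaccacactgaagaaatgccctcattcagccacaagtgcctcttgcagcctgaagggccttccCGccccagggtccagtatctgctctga
Pde4d site 4 (chr13:109686056-109686155, plus strand): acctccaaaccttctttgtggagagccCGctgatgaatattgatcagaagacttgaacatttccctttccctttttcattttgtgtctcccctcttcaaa
Pde4d site 5 (chr13:109903006-109903105, plus strand): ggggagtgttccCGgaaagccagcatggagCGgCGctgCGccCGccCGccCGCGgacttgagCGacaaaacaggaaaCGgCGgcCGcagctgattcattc
CpG-rich windows stood at the first and the last site, with 10 CpGs at site 1 and 12 at site 5. The windows of sites 2, 3 and 4 had 3, 1 and 1. The window of site 5 also held a TGANTCA match, with T at the centre. The transcripts at sites 2 and 3 have incomplete 5′ ends in the annotation.

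Of the coding genes, 7326 had no promoter site, 12328 had 1 and 1008 had 2. Exactly 3 sites were found in 114 genes, 4 in 24, 5 in 4 (Pde4d, Tmcc3, Dab2ip and R3hdm2) and 6 in 2 (Abr and Plec). The largest number was 7, in Tcf4. No site belonged to more than a single member gene. At the threshold, Por was included because the start in 1 of its sites lay 3 bp inside the edge, and C1qtnf1 and Pard3 because of starts 12 bp inside. On the other side, Bdnf was left at 2 sites because its nearest further start lay 3 bp outside a site, and Fgd4 because it lay 16 bp outside. When starts within 100 bp of a site were accepted, 172 genes qualified, and when starts had to lie at least 25 bp inside, 137 did.

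A gene can only be a member if its annotated starts are spread out. When starts at most 1 kb apart were joined into clusters, 1957 coding genes had 3 or more clusters, and 140 of them (7.15%) were members; the other 5 members had several sites within fewer clusters. The 145 genes had 704 clusters in all, of which 467 (66.3%) contained an accessible start. In 36 genes every cluster was accessible, as in Mast4, Iqsec1 and Arhgap24 with 4 of 4 each. In others most clusters held no start in a listed site: Macf1, which encodes a linker of actin and microtubules, had 3 accessible clusters of 11, and Pde4d had 5 of 12. Member genes were also long, with a median length of 147 kb (quartiles 62.6 and 282 kb), compared to 59.3 kb in genes with 2 promoter sites and 23.2 kb in genes with 1. Per 100 kb of gene, the median number of accessible sites of any kind was 12.2 in members, 12.8 in genes with 2 and 11.8 in genes with 1. No test between these classes was made, because the rule itself uses the sites.

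The promoter sites of a gene were mostly far apart. The 332 gaps between neighbouring sites had a median of 31.0 kb, with quartiles of 5.13 and 70.7 kb. The shortest was 91 bp, in Zfp710, and the longest 749 kb. The longest was found in Mdga2. In 30 genes, 38 gaps were no longer than 1 kb, and the list keeps the sites on both sides of them separate. When sites at most 1 kb apart were joined, 125 genes still had 3 or more. From the first to the last site, the members spanned a median of 87.9 kb (quartiles 26.6 and 197 kb). Spans over 100 kb were found in 65 genes and spans under 10 kb in 18. Tle3, a Groucho-family corepressor, was the most compact with 2.62 kb.

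**Figure D1:**
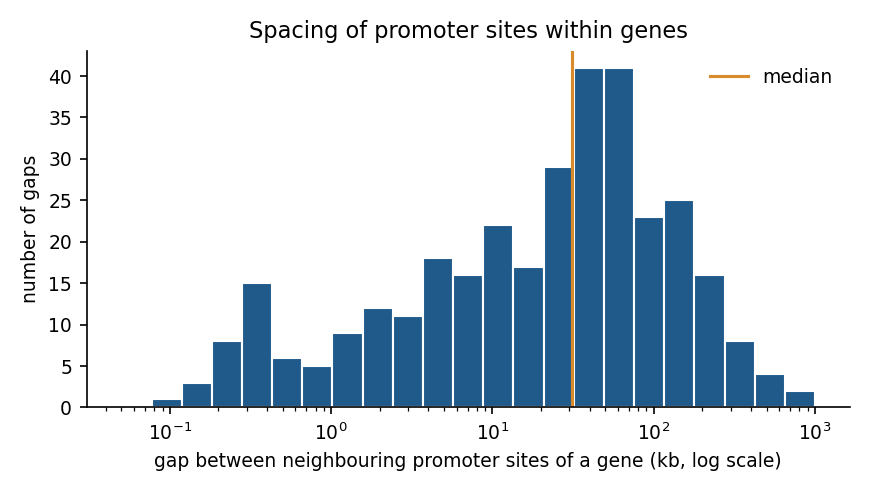
Histogram of the 332 gaps between neighbouring promoter sites of the 145 genes, with the gap in kb on a log axis and the number of gaps on the vertical axis; the vertical line marks the median of 31.0 kb. The quartiles lie at 5.13 and 70.7 kb, and a small group of 38 lies at or below 1 kb.

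Promoter sites of these genes were wider than the average site of the list. Their median width was 1172 bp (quartiles 827 and 1586 bp), against 619 bp over all 153924 sites; the rule requires a start site in each member, which most other sites of the list lack. The 5′-most sites had a median of 1412 bp, the 3′-most sites of 1066 bp, and the sites between them of 1092 bp. The only sites of genes with 1 promoter site had 1433 bp. Within the genes, the 5′-most site was wider than the 3′-most in 98 of 145 and narrower in 47. The narrowest member, with 187 bp, was the last site of Zfp532, and the widest, with 3548 bp, the last site of Dlc1.

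CpG islands were most frequent at the 5′-most promoter sites of these genes. That site is the first with an accessible start and need not lie at the start of the gene. In Pde4d, for example, the annotated gene begins at position 108449948 and site 1 at 109115775. Islands were computed from the genome as stretches of at least 200 bp outside repeats with a GC content over 50% and a ratio of observed to expected CpG over 0.6. Of the 477 sites, 210 or 44.0% (95% Wilson interval 39.6 to 48.5%) overlapped an island. The 5′-most site did so in 104 of 145 genes (71.7%, 63.9 to 78.4%), the sites between in 64 of 187 cases (34.2%, 27.8 to 41.3%) and the 3′-most site in 42 of 145 (29.0%, 22.2 to 36.8%). Only the first site had an island in 73 genes and only the last in 11, with both in 31 and neither in 30. This difference of 42.8 percentage points was tested within genes by a two-sided exact sign test (adjusted p = 6.75e-12, Benjamini-Hochberg over 3 features). The p refers to genes of a pooled list, which are not biological replicates. The 3′-most sites were also narrower, as given above, and 15 of them rested only on transcripts with incomplete 5′ ends, compared to none of the 5′-most. The difference was 33.1 points when the CpG content of the 500 bp at the middle of each site was used instead of overlap with an island, and 44.6 points in the 130 genes that remained without incomplete transcripts.

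**Figure D2:**
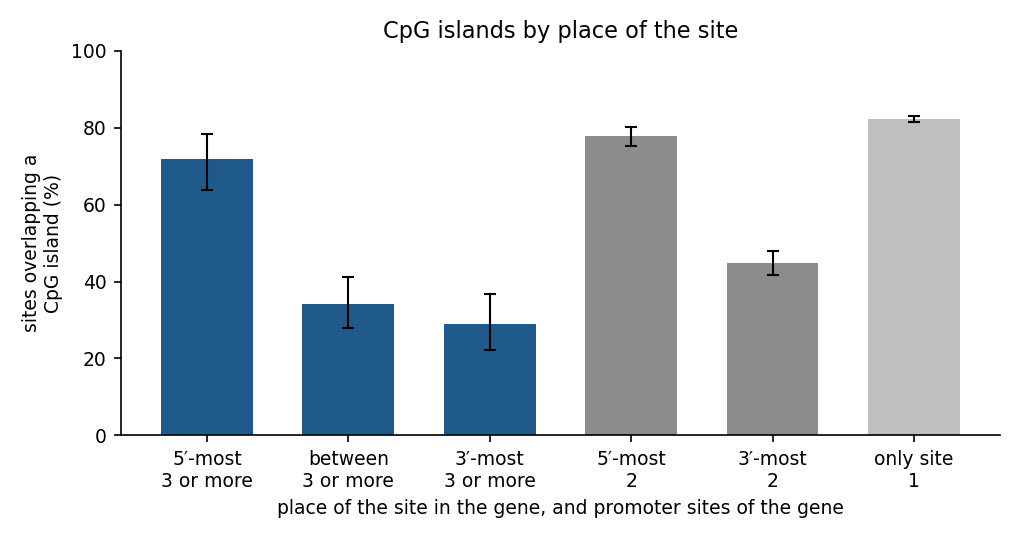
Share of promoter sites that overlap a CpG island, in percent from 0 to 100, by the place of the site in genes with 3 or more (blue), 2 (dark grey) and 1 (light grey) promoter sites; bars show the share and lines its 95% Wilson interval. In genes with 3 or more sites the share is 71.7% at the 5′-most site, 34.2% between and 29.0% at the 3′-most.

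Genes with 2 promoter sites showed the same order. Their 5′ site overlapped an island in 784 of 1008 genes (77.8%) and their 3′ site in 452 (44.8%), with 441 genes having an island only at the 5′ site and 109 only at the 3′ site (two-sided exact sign test, adjusted p = 7.7e-48 over the same 3 features). In these genes with 2 sites, 15.2% of the 3′ and 0.397% of the 5′ sites held only starts within later exons. Incomplete transcripts were the only support of 10.8% of the 3′ and 0.496% of the 5′ sites. A start of another coding gene fell into 3.47% of the 3′ and 21.4% of the 5′ sites. In genes with 1 promoter site the island share was 82.3% (81.6 to 82.9%). The ratio of observed to expected CpG, which needs no island definition, had a median of 0.649 at the 5′-most sites (quartiles 0.456 and 0.747) and 0.369 at the 3′-most (0.228 and 0.603). The ratio was higher at the 5′-most site in 104 genes and at the 3′-most in 41. The GC content fell less, from a median of 59.3% to 53.5%.

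**Figure D3:**
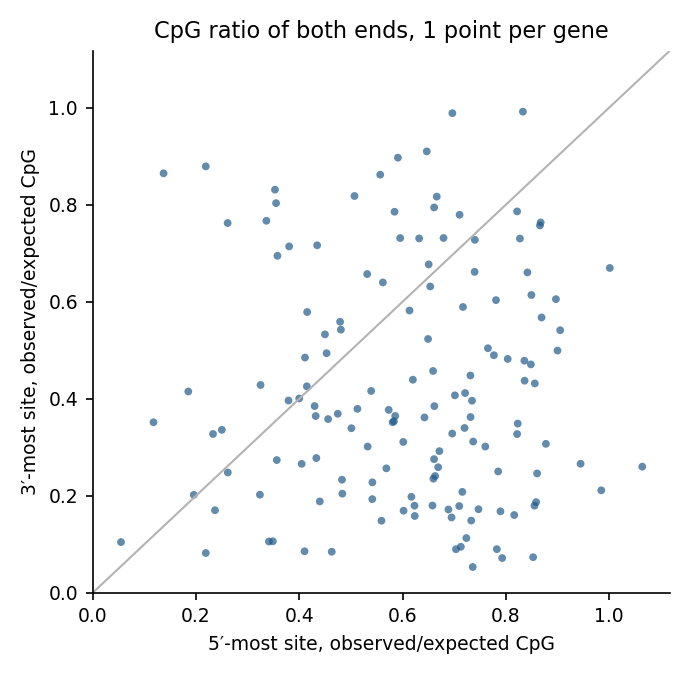
Observed to expected CpG of the 5′-most site (horizontal axis) against the 3′-most site (vertical axis) of each of the 145 genes, with the line of equality; each point is a gene and both axes are ratios without unit. Of the points, 104 lie below the line, with the higher ratio at the 5′-most site, and 41 above it.

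Few genes were uniform. All sites overlapped an island in 11 genes (Tcf20, Fgf9, Hmgb1, Kdm2b, Rai1, Gnas, Mxi1, Dpf1, Bmi1, Zfp710 and Tle3), and no site did in 13 (Arhgap24, Zbtb20, Mcf2l, Zmynd8, Nckap5, Mef2c, Gcnt2, Fez1, Sorbs2, C1qtnf1, Capg, Apobec3 and Arhgef19). The remaining 121 genes combined both kinds of promoter. A single island site was the most frequent arrangement, in 73 genes, and it was the 5′-most site in 52 of these.

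Matches to the AP-1 pattern TGANTCA, which accepts any base at its centre, followed the opposite order. They were searched in the 200 bp at the middle of each site, a palindromic motif that reads the same on both strands. They were found in 3 of the 145 5′-most sites (2.07%), in 17 of 187 sites between (9.09%) and in 20 of 145 3′-most sites (13.8%). Only the first site had a match in 2 genes and only the last in 19, which differed in the two-sided exact sign test (adjusted p = 0.000332 over 3 features). With basic transcripts only, which left 68 genes, the difference did not pass (-10.3 points, adjusted p = 0.0586, exact sign test). Over all 150083 sites of the same chromosomes the share was 18.9%, and in genes with 1 promoter site it was 2.85%. Genes with 2 sites again showed the same direction, with 3.27% at the 5′ and 9.33% at the 3′ site (adjusted p = 2.05e-08, exact sign test). The matches went together with the absence of an island. Of the 267 member sites without an island 37 had a match (13.9%, 10.2 to 18.5%), and of the 210 with an island 3 had a match (1.43%, 0.487 to 4.12%). Among sites without an island, a match was found in 2 of 41 5′-most, 15 of 123 between (12.2%) and 19.4% of the 3′-most sites. Genes with a match at the last site included Plec, Utrn and Synpo among the cytoskeletal linkers, the nuclear lamina gene Lmna, and Col18a1. A match describes the letters in the window and not binding of the factor. Islands are defined by GC and CpG content, and the rate of matches expected from base composition was not computed.

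The EGR consensus GCGNGGGCG, searched on both strands, was present in 11 first sites (7.59%) and 5 last sites (3.45%), a difference of 4.14 points that did not pass the test (adjusted p = 0.210, exact sign test). When whole sites were searched, the difference was 16.6 points with an adjusted p of 0.00224 in the same exact test; first sites are also wider and offer more sequence. Genes with 2 promoter sites had a match at 8.43% of the 5′ and 5.95% of the 3′ sites, with 81 genes matching only at the 5′ and 56 only at the 3′ site (adjusted p = 0.0399, exact sign test). Over all sites the share was 0.859%. Of the 210 island sites 20 had a match, and of the 267 sites without an island 3 had one. The consensus itself contains CpG and islands are defined by CpG content, so these counts cannot be separated from base composition. No rate expected from composition was computed. A TATA box, searched as TATAAA on the strand of the gene between 40 and 20 bp upstream of a start, was found in 4 of the 477 sites (0.839%): site 4 of Abr and the middle sites of Tbc1d1, Nup93 and Art3. In genes with 1 promoter site the share was 1.56%.

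The annotated transcripts show where alternative sites would change the protein. In 144 genes at least 2 sites had a transcript with a complete coding start, and in 104 of these (72.2%) some sites led to different start codons. In 57 genes no pair of the sites with such a transcript shared a start codon. Examples were Dab2ip, with 5 different coding starts for 5 sites, and Ank3, with 4 for 4. Sites without a complete coding start were not compared, which left 3 of the 5 sites of Pde4d. In 40 genes a coding start was common to all sites compared, as in Zbtb20, Rreb1, Mef2c and Tcf20, so that those sites can lead to the same start codon. These counts describe the annotation, since no RNA was measured in the data used here.

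The annotation also limits what can be called a promoter. Transcripts with incomplete 5′ ends were the only support of 22 member sites, and 26 sites held only starts that lie within a later exon of another transcript. A start of another coding gene fell into 7 sites, all of them 5′-most (in Nt5c2, Dst, Mrpl48, St5, Jmjd1c, Tns1 and Hmgb1). In RefSeq, 143 genes were found by symbol, and 361 of the 477 sites (75.7%) contained a RefSeq start, and 279 of the 477 (58.5%) contained that of a curated transcript. The first site contained a curated start in 101 genes and the last in 76. Of the 145 genes, 74 had 3 or more sites with a RefSeq start, and 36 had 3 or more with a curated start. With transcripts of support level 1 or 2 only, 44 genes kept 3 or more sites, among them Plec with 6, Dab2ip and Tmcc3 with 4, and Abr, Ank3, Gnas, Kdm2b and R3hdm2 with 3.

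**Figure D4:**
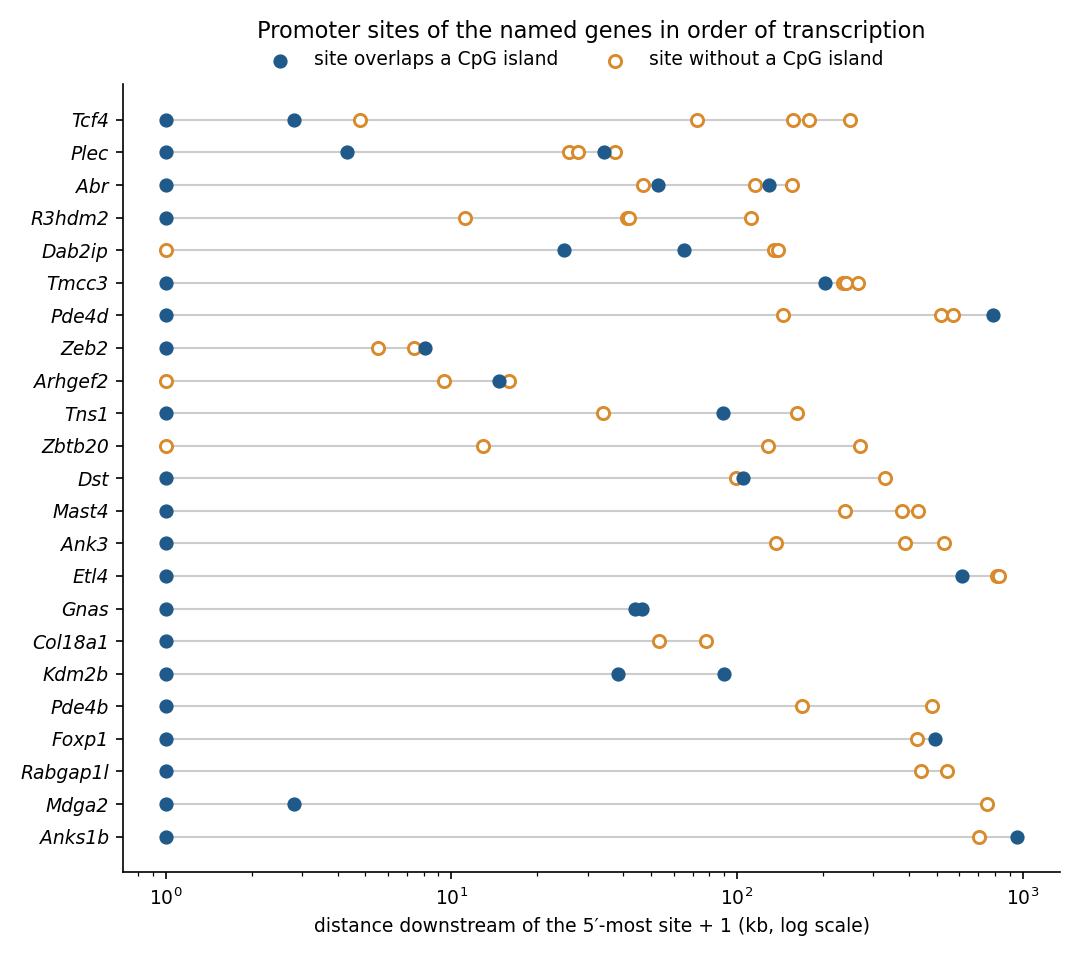
Promoter sites of the 23 named genes, with the distance of each site downstream of the 5′-most site plus 1 in kb on a log axis; filled blue circles overlap a CpG island and open orange circles do not. In 20 genes the 5′-most site is filled, the exceptions being Dab2ip, Arhgef2 and Zbtb20.

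Cytoskeletal linkers and actin-binding proteins connect actin, intermediate filaments and microtubules with each other and with the cell membrane. Of 36 such genes, 9 were members (Plec, Dst, Ank3, Tns1, Sept9, Macf1, Ank2, Utrn and Synpo), 13 had 2 promoter sites and 14 had 1. The share of 25% stands beside 0.697% over all coding genes; the list was made with genes of known alternative starts among it, so the share says nothing about the class as a whole, and the same holds for the other lists. In Plec (chr15:76195390-76233345, minus strand), the sites were 1378, 1264, 1583, 540, 2064 and 1720 bp wide and lay 3.31, 24.7, 26.7, 33.3 and 36.2 kb downstream of site 1. They fell into a pair at the 5′ end, with islands, and 4 further sites between 24.7 and 36.2 kb, of which site 5 overlapped an island and sites 4 and 6 had an AP-1 match. Dst (chr1:33906963-34237645, plus strand), the gene of dystonin, had islands at site 1 and at site 3, the latter 104 kb downstream, and none at sites 2 and 4 (98.4 and 329 kb). Ank3 (chr10:69398159-69926913, plus strand) encodes ankyrin-G, which anchors membrane proteins to spectrin. Only its first site overlapped an island, and the others followed at 135, 387 and 528 kb with widths of 2365, 686 and 1036 bp. In Tns1 (chr1:73962656-74125745, minus strand), a focal adhesion protein gene, sites 1 and 3 had islands and sites 2 and 4 did not, with site 4 lying 162 kb downstream. Its site 3 was supported by incomplete transcripts only. Of the other linkers, Utrn, which encodes utrophin, had its island at a first site of 2849 bp and an AP-1 match at a last site of 1076 bp.

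Transcription factors were represented by 9 of 46 listed genes (19.6%), namely Tcf4, Zbtb20, Zeb2, Foxp1, Mef2c, Runx1, Nfic, Rarg and Creb5, while 13 had 2 sites, 22 had 1 and 2 had none. Tcf4 encodes a basic helix-loop-helix E protein. Its 7 sites covered 250 kb of chromosome 18 (positions 69344001 to 69593934, plus strand), with islands at the first and the second site, separated by 434 bp, and none at the 5 sites that followed between 3.79 and 248 kb. The site at 71.2 kb had an AP-1 match, and the last, with 2173 bp, was the widest. Zbtb20 (chr16:43234963-43504631, plus strand), whose windows are shown above, had sites of 778 to 2004 bp at 0, 11.9, 128 and 268 kb. In Zeb2 (chr2:45109223-45117717, minus strand), a zinc finger repressor of epithelial genes, 4 sites lay within 8.5 kb. The outer sites of 1412 and 1404 bp overlapped islands, and the inner sites of 246 and 361 bp did not, although their CpG ratios of 0.756 and 0.698 were high; the starts at site 2 lie within a later exon. Foxp1 (chr6:99027712-99523684, minus strand), a forkhead factor gene, had islands at sites 1 and 3, which were 2802 and 1518 bp wide, site 3 lying 494 kb downstream. Runx1 had its islands at the second and the third site, which were only 315 bp apart. Its first site of 663 bp lay 127 kb upstream of the second. Of these 9 genes, Mef2c and Zbtb20 had no site with an island.

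Signalling genes contributed 5 of 36 listed genes (13.9%), which were Pde4d, Dab2ip, Arhgef2, Pde4b and Dlc1; 14 had 2 sites, 16 had 1 and 1 had none. The Pde4 family differed among its members: Pde4d had 5 sites and Pde4b 3, but Pde4a had 1 and Pde4c none. In Pde4d (chr13:109115775-109903708, plus strand), the sites were 1441, 1206, 2010, 1318 and 1443 bp wide and lay at 0, 144, 516, 569 and 786 kb. Pde4b (chr4:102087479-102571180, plus strand) had an island at site 1 and none at the sites 167 and 482 kb downstream, and its 3 sites were of similar width (1097, 1240 and 1224 bp). Dab2ip (chr2:35557557-35697403, plus strand) encodes a Ras GTPase-activating protein. Here the first site of 1484 bp lacked an island, the second and the third (23.8 and 64.1 kb) had one, and the last sites (134 and 139 kb) had CpG ratios of 0.137 and 0.106. Arhgef2 (chr3:88607291-88622722, plus strand), whose protein binds microtubules, also began without an island. Its only island was at site 3, 13.7 kb downstream, and site 4 followed at 14.9 kb.

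The remaining lists held 1 member each. Among 15 genes of the extracellular matrix it was Col18a1 (chr10:77089261-77166841, minus strand), whose collagen releases endostatin. Its first site of 1642 bp overlapped an island, the sites at 52.3 and 76.9 kb did not, and the last had an AP-1 match. Among 18 imprinted and cell cycle genes it was Gnas (chr2:174283913-174331161, plus strand), the imprinted gene of the stimulatory G protein subunit, with islands at all 3 sites. Sites 2 and 3 lay 43.1 and 45.6 kb downstream of site 1, and the starts at site 3 lie within a later exon. Promoters of imprinted genes can be methylated on a parental allele, but methylation was not measured here and the data do not separate alleles. Among 28 chromatin regulators it was Kdm2b (chr5:122899079-122989959, minus strand), a histone demethylase that binds unmethylated CpG islands. Its 3 sites of 2564, 1871 and 1995 bp all overlapped islands, and sites 2 and 3 lay 37.2 and 88.9 kb downstream of site 1. Ash2l itself, the gene inactivated in these cells, had a single promoter site (chr8:25840116-25841723) of 1608 bp with an island, which held the starts of 3 of its 5 coding transcripts; 18 of the 28 chromatin regulators likewise had 1.

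Abr (chr11:76468187-76624027, minus strand) was the only gene besides Plec with 6 sites. Islands alternated with sites that lacked them: sites 1, 3 and 5, with 1947, 1360 and 1786 bp, had one, and sites 2, 4 and 6, with 702, 551 and 779 bp, had none. Tmcc3 (chr10:94311653-94575294, plus strand) had islands at sites 1 and 2, of which the second lay 202.6 kb downstream, and a last site of 233 bp. R3hdm2 (chr10:127380042-127492727, plus strand) was open over 1542 bp at its island, while sites 2, 3 and 4 spanned 209, 524 and 202 bp. Its sites 2 and 5 held only starts within later exons, and site 5 was supported by incomplete transcripts only. Mast4 (chr13:102905205-103335260, minus strand), a gene of a microtubule-associated kinase, had 4 sites of 1216 to 1878 bp over 430 kb with an island at the first. Its site 2 was supported by incomplete transcripts only.

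The longest spans, from 544 to 958 kb, were found in Rabgap1l, Mdga2, Pde4d, Etl4 and Anks1b. Anks1b (chr10:89872307-90830045, plus strand), which encodes a scaffold protein of synapses, had sites at 0, 704 and 956 kb, the first and the last of them with islands and CpG ratios of 0.647 and 0.910. Etl4 (chr2:19908998-20737673, plus strand) had islands at its first site and at the second, 610 kb downstream, followed by sites at 813 and 827 kb without. The starts at its second site lie within a later exon. Mdga2 (chr12:66470723-67222965, minus strand), the gene of a membrane-anchored immunoglobulin protein, opened with a pair of island sites separated by 229 bp. The third site, 751 kb downstream, held only a start within a later exon. Rabgap1l (chr1:160249862-160793463, minus strand), a GTPase-activating protein gene for Rab, had an AP-1 match at the site 441 kb downstream of its island and a site of 2516 bp at 541 kb that was supported by incomplete transcripts only.

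The 145 genes were distributed over all 19 autosomes, 85 of them on the plus strand. Their share of the coding genes was highest on chromosome 15 with 12 of 785 (1.53%), followed by chromosome 10 with 12 of 1021 (1.18%) and chromosome 18 with 6 of 513 (1.17%). It was lowest on chromosome 9 with 4 of 1210 (0.331%) and chromosome 14 with 3 of 902 (0.333%).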

How the data were processed

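ATAC-seq of 10 libraries, 2 for each of 5 groups, was analysed through the deposited list of all accessible sites. According to their methods, the authors used Trim Galore for trimming and BWA for alignment to mm10, filtered alignments with SAMtools, merged replicates with Picard, called narrow peaks with MACS, and normalized and tested accessibility with DESeq2. The peak threshold, the Tn5 shift, the blacklist, the joining of sites over libraries and all versions were not given in the sources used here. Each would change the number and edges of sites. The extract protocol of the labels describes chromatin immunoprecipitation; tagmentation of nuclei is described in the methods.

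The list holds chromosome, start and end, so the planned count test of the time points was not run. Starts were read as counted from 0 and are printed counted from 1. Start sites came from the comprehensive GENCODE M21 annotation of GRCm38, whereas the study names a later release. CpG islands and motifs came from the genome sequence. Shares carry 95% Wilson intervals, which cover the sampling of sites only and treat sites of the same gene as independent. The 5′-most and 3′-most sites were compared by two-sided exact sign tests over genes. The member genes, the 6 gene lists and the tests were chosen with earlier results of these data known. Named genes were the 10 with most sites, the 5 with the longest span, up to 4 per list, and Ash2l. The sequence window of 1 Plec site is not reported here. Scripts were tested on simulated data. The software was Python 3.11.15 with SciPy 1.17.1, pandas 2.3.3, NumPy 2.4.6, Matplotlib 3.10.9 and Numba 0.67.0.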

Additional observations from a re-analysis of the deposited data

Results flagged for a closer look

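Chromosomes X and Y lay outside the rule that chose the genes. By the same criterion, 5 of 948 coding genes on X (0.527%) had 3 or more promoter sites and 0 of 183 on Y, beside 0.697% on the autosomes. The genes on X were Bcor, a corepressor gene of Polycomb complexes, Fhl1, which encodes a LIM domain protein, Ikbkg, the regulatory subunit gene of the IκB kinase, Mid1, a ubiquitin ligase gene, and Sh3kbp1, which encodes an endocytic adaptor. A further 29 genes on X had 2 sites. The list has no control level, so these are counts without a test.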

How the results depend on the processing

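The number of genes depended on the transcripts accepted. It was 68 with basic transcripts only, 44 with support level 1 or 2, 95 with sites no narrower than the median and 49 with curated RefSeq starts, an alternative added after the data were seen. Under 9 other settings it stayed within 1.5 times of 145, between 125 and 202. The 202 genes came from all RefSeq starts, an alternative that was also not planned. They were not the same set, since only 74 of the 145 members had 3 or more sites with a RefSeq start. All 44 genes of support level 1 or 2 and all 130 genes left without incomplete transcripts were among the 145. The difference in island share between first and last sites kept its direction and passed the exact sign test under all 13 alternatives, from 33.1 to 53.1 points. The AP-1 difference did not pass with basic transcripts only (-10.3 points, adjusted p = 0.0586, exact sign test), where 68 genes were compared, and ranged from -14.5 to -10.3 points over 4 alternatives. The EGR difference passed only when whole sites were searched (16.6 points; adjusted p from 0.00224 to 0.688 over 4 alternatives, exact sign test). Genes with at least 1 pair of sites without a common coding start numbered 58 with basic transcripts and 35 with support level 1 or 2. These settings left only 68 and 44 genes with 3 or more sites, so fewer genes could be compared. Joining sites at most 1 kb apart raised the median width to 1457 bp.

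No paired analysis was possible because only a pooled list of sites was analysed; for the same reason the comparisons of time points, leaving out replicates and the replicate block were not run. Depth is unknown, so closed and undetected promoters cannot be told apart. The list does not say in which libraries a site was found, so whether a promoter was open in untreated cells, treated cells or both cannot be told apart.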

Other observations

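Several member genes outside the lists encode growth factors and their receptors. These genes were picked after their values had been seen and are given as values only. Fgf9, a fibroblast growth factor gene, had 4 sites of 1044, 1151, 1148 and 604 bp within 6.30 kb, all with islands. Pdgfra, the receptor gene commonly used as a marker of fibroblasts, had 3 sites within 4.59 kb, of which the first (982 bp) and the last (1741 bp) overlapped islands. Wnt5b had an island site of 1792 bp, and sites of 936 and 259 bp followed 77.1 and 95.6 kb downstream without one. In Lifr, the receptor gene for leukemia inhibitory factor, the island lay at the second site of 2155 bp, 38.3 kb downstream of a first site of 775 bp. Ddr1, a collagen receptor gene, had AP-1 matches at its first and last sites and an island at the site between them. Gaps of at most 1 kb separated sites of Fgf9 (312 and 306 bp), Pdgfra (290 and 449 bp) and Ddr1 (536 bp). With sites at most 1 kb apart joined, these genes would have fewer than 3 sites.

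Other members outside the lists include a ribosomal, a Polycomb, a clock and a cyclin gene. Rps14, a gene of the small ribosomal subunit, began with a site of 235 bp without an island and had islands at the sites 0.426 and 26.9 kb downstream. Bmi1, a Polycomb gene, had 3 island sites within 5.06 kb, the middle one 260 bp wide. The clock gene Per1 had an island at its first site of 906 bp and none at the sites 4.14 and 5.24 kb downstream. Ccnd3, a cyclin gene, had its island at the second of 3 sites, 88.3 kb downstream of the first. Gaps of at most 1 kb also separated sites of Rps14 (191 bp), Bmi1 (310 bp), Per1 (445 bp) and Ccnd3 (798 bp). These genes, too, would have fewer than 3 sites if such sites were joined.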
